A study of Homo sapiens with 9 samples.

Results

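Immune checkpoint ligands are the surface proteins, secreted lectins and enzymes with which a cell can restrain or redirect the T cells, natural killer cells and macrophages that meet it. The 10 genes described here were chosen by name, as the rows whose Ensembl identifier maps to CD274, PDCD1LG2, CD276, VTCN1, IDO1, LGALS9, PVR, NECTIN2, TNFRSF14 and CD47. They are 10 of 60617 genes in the deposited count files, and all 10 were among the 18532 genes with enough counts to be tested. PC-3 is an established line of human prostate cancer cells that grow without androgen. All 9 libraries came from this line. The 3 control libraries were from cells that received neither drug, and the study's methods name a vehicle of sulfuric acid and ethanol in PBS. Another 3 were from cells treated with 1 µM of decitabine, and 3 were from cells given 1 µM of decitabine together with 200 µM of S-adenosylmethionine (SAM). Doses are from the study's methods, and the labels give 5 days for all samples. Decitabine is a cytidine analog that traps DNA methyltransferases and so lowers DNA methylation as cells divide, and SAM is the methyl donor of these enzymes. The comparison of the combination with decitabine asked what SAM changed in cells that had decitabine as well. A group with SAM as the only agent was not analysed here.

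PD-L1 (encoded by CD274) and PD-L2 (PDCD1LG2) bind the receptor PD-1 on T cells and dampen their activation, and interferon gamma is a well known inducer of CD274 and of IDO1. B7-H3 (CD276) and B7-H4 (VTCN1) are relatives of the same B7 family, whereas PVR and NECTIN2 are adhesion proteins bound by the receptors TIGIT, which inhibits, and CD226, which activates lymphocytes. IDO1 degrades tryptophan to kynurenine, galectin-9 (LGALS9) binds glycans of T cell surface proteins, HVEM (TNFRSF14) binds the inhibitory receptor BTLA and the co-stimulator LIGHT, and CD47 signals to macrophages through SIRPA not to engulf the cell.

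Libraries held between 21934307 and 22489684 estimated counts. Values are given as TMM-scaled CPM, counts relative to a library total that edgeR's trimmed mean of M-values had corrected. The factors ranged from 0.895 to 0.903 for controls, from 1.06 to 1.08 for decitabine and from 1.03 to 1.07 for the combination. The median log2 fold change over the genes tested was 0.035 with decitabine and 0.048 with the combination. It was 0.28 and 0.267 when library size was the only scaling, so small changes depend on the TMM scale. The labels do not say whether replicates were separate cultures, so p-values measure the spread between these samples, which may be technical. Marker genes were read first. The summed level of 5 epithelial markers lay between 726 and 955 CPM over all libraries, but its members went in opposite directions. With decitabine, CDH1 (E-cadherin) rose by 2.94 and KRT8 by 1.14 on the log2 scale, KRT18 fell by 0.25 and KRT19 fell by 0.58, and EPCAM was not called. KLK3 (prostate-specific antigen) was listed at 0 in every library. Of 9 leukocyte markers, CD2, MS4A1 and FCGR3A were listed at 0 in every library, and the sum of all 9 was 0.198 to 0.4 CPM in controls, 1.94 to 2.65 CPM with decitabine and 1.85 to 2.0 CPM with the combination.

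The promoter sequences of the members are shown first, because decitabine lowers methylation at CpG sites as cells divide. Each line gives the 250 bases before the RefSeq transcription start on the strand of the gene, 5′ to 3′ (RefSeq, GRCh38.p14), with every CpG in capitals. The 5 shown are CD274, LGALS9, VTCN1 and NECTIN2, which were higher with decitabine, and the first of 2 CD276 promoters, since CD276 was lower.
CD274, chr9:5450292-5450541, plus strand: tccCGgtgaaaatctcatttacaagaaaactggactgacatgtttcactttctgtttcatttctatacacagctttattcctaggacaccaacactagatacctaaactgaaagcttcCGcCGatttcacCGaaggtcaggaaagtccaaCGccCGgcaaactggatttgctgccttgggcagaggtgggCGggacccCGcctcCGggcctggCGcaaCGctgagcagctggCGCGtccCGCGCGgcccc
LGALS9, chr17:27630938-27631187, plus strand: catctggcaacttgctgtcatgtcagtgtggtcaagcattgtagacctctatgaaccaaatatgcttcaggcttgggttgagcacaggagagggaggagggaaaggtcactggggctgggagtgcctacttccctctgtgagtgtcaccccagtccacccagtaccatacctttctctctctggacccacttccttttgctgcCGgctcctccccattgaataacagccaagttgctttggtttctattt
VTCN1, chr1:117210928-117211177, minus strand: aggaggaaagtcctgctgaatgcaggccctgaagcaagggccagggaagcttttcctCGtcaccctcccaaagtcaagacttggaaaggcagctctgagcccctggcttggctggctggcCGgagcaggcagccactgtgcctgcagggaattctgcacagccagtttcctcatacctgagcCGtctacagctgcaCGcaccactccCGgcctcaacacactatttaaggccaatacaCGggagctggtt
NECTIN2, chr19:44846047-44846296, plus strand: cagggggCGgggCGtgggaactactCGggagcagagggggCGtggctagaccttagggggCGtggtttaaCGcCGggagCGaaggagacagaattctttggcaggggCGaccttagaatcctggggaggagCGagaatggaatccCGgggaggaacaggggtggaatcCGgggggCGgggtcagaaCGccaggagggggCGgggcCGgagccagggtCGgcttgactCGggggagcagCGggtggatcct
CD276, chr15:73684133-73684382, plus strand: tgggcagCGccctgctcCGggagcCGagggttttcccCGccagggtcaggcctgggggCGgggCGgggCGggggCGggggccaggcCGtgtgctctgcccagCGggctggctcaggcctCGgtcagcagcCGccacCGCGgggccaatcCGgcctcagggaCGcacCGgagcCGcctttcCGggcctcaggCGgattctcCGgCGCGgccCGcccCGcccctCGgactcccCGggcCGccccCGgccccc

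CpG content differed widely among these windows. The LGALS9 window held 1 CpG, and 6.06% of 35116 promoters of the same length had fewer. The VTCN1 window held 6, the CD274 window 16, the NECTIN2 window 19 and the CD276 window 29, against a median of 11 over all promoters. Among the members not printed, TNFRSF14 had 9, PVR 27 and CD47 39 CpG, and 97.3% of promoters had fewer than CD47. PDCD1LG2 and IDO1 had no entry. For all members with an entry, the RefSeq start lies inside the gene as GENCODE places it. The windows of LGALS9, CD276, TNFRSF14 and CD47 lie wholly within the gene. Methylation at these sites was not analysed here. The windows were also searched on both strands for the interferon-stimulated response element type, GAAA repeated after any 2 bases (TTTC repeated after any 2 bases on the other strand), which 3.02% of all promoters held, and for the palindromic gamma-activated site type TTCNNNGAA, which 6.57% held. Of the 9 windows of 8 members, the CD274 window alone held a match. The pair of matches of the first type overlapped, at 208 to 199 and at 202 to 193 bases before the start, and the match of the second type lay at 125 to 117 bases before it. They are shown with flanking bases, the match in capitals.
CD274, response element type, 208 to 199: gactgacatgTTTCACTTTCtgtttcattt
CD274, response element type, 202 to 193: catgtttcacTTTCTGTTTCatttctatac
CD274, activated site type, 125 to 117: ttccgccgatTTCACCGAAggtcaggaaa

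Control cells expressed 4 of the members well, TNFRSF14 at an intermediate level and 5 hardly at all. On the scale of TMM-scaled CPM per kb of the canonical transcript, CD47 had 20 ± 1.43 (SD, n = 3), PVR 17.7 ± 0.481, CD276 17.1 ± 2.13 and NECTIN2 13.9 ± 0.353, followed by TNFRSF14 with 2.52 ± 0.376. Of the 5 lowest, IDO1 had 0.117 ± 0.0779, CD274 0.114 ± 0.0432, VTCN1 0.0635 ± 0.011, PDCD1LG2 0.0545 ± 0.0314 and LGALS9 0.0386 ± 0.0443 CPM per kb. In counts, these 5 genes had 4 (LGALS9) to 25 (CD274) over the 3 control libraries together. In this order, the libraries of PVR and CD276, of IDO1 and CD274, of VTCN1 and PDCD1LG2 and of PDCD1LG2 and LGALS9 overlapped. With decitabine NECTIN2 was first at 33.5 ± 1.62 CPM per kb, before CD47 at 27.4 ± 0.526, PVR at 20.2 ± 1.75 and CD276 at 13.1 ± 1.16. IDO1 (5.12 ± 1.26), LGALS9 (3.58 ± 1.19), CD274 (3.13 ± 0.417) and TNFRSF14 (2.88 ± 0.225) followed, and each overlapped the next. PDCD1LG2 (1.15 ± 0.481) and VTCN1 (0.762 ± 0.297) came last and overlapped. With the combination NECTIN2 (24.8 ± 1.54), CD47 (22.8 ± 1.94) and PVR (19.4 ± 2.41) overlapped in turn, CD276 had 13.5 ± 0.601, and each of the 6 lower members overlapped the next.

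**Figure D1:**
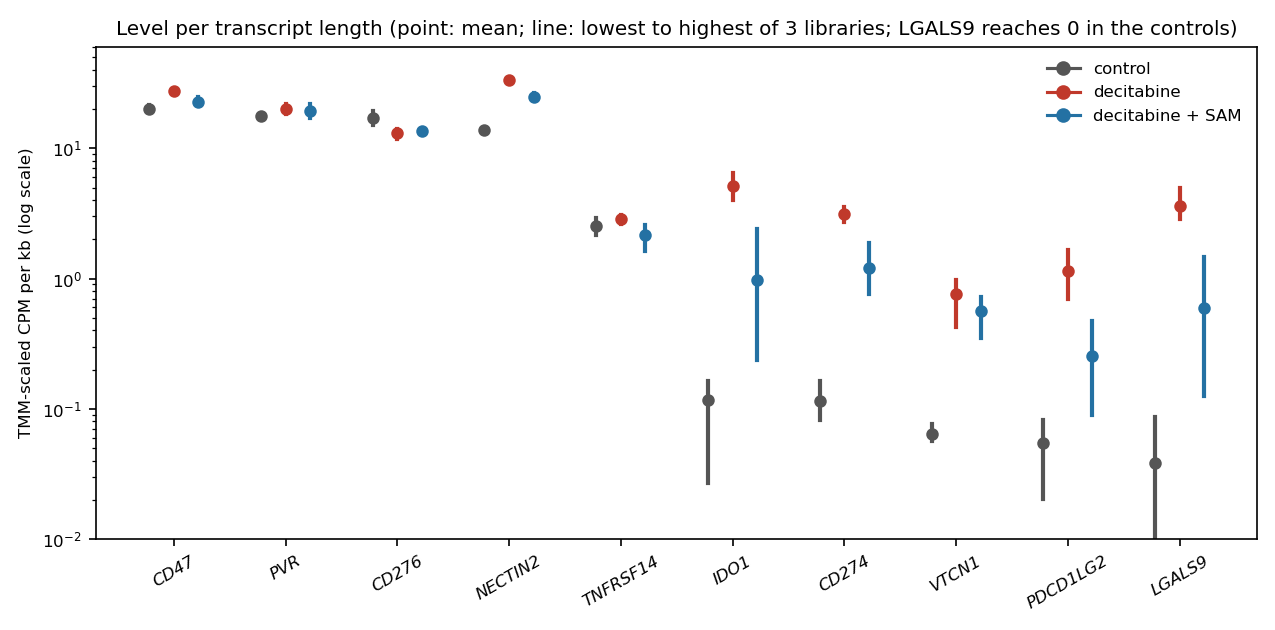
Level of the 10 members per length, as TMM-scaled CPM per kb on a log axis, with a point for the mean and a line from the lowest to the highest of 3 libraries in control, decitabine and decitabine plus SAM. CD47, PVR, CD276 and NECTIN2 lie above 10 in all groups, and 5 members that lie under 0.2 in the controls are higher with decitabine; LGALS9 was listed at 0 in 1 control library, where its line is cut at the axis.

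With decitabine, 7 of the 10 genes were upregulated and 1 was downregulated against control in edgeR's quasi-likelihood test at an adjusted p under 0.05. Over all genes tested, 36.3% were upregulated and 32.5% downregulated at that threshold. With scaling by library size alone the numbers over all genes were 8838 up and 3758 down, in place of 6729 and 6030. Among the 10 genes, 6 were upregulated by more than 1 on the log2 scale, which 22.7% of all genes were. The median log2 fold change of the 10 genes was 2.4, beside 0.035 over all genes tested. Of the 6, CD274, PDCD1LG2, VTCN1, IDO1 and LGALS9 had 4 (LGALS9) to 25 (CD274) counts over the controls. They had enough counts for testing only through the treated libraries. Such genes could hardly be called lower, so these numbers favour increases. In bulk libraries, a change in the number of cells that express a gene and a change in its RNA per cell cannot be told apart.

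The ligands of PD-1 were nearly silent in control cells. CD274 (ENSG00000120217, chromosome 9, 5450503 to 5470566, plus strand, GENCODE release 44 on GRCh38) had 0.298, 0.35 and 0.592 CPM in the control libraries. With decitabine it had 9.8, 11.5 and 12.8 CPM. The lowest treated library was far above the highest control, and the fitted increase was 27.2-fold (log2 fold change 4.76, standard error (SE) 0.39, adjusted p = 6.3e-07, edgeR's quasi-likelihood test). PDCD1LG2 (ENSG00000197646) lies on the same strand 39964 bases further along, at 5510531 to 5571282. It had 0.0496, 0.2 and 0.148 CPM in controls and 1.69, 2.65 and 4.02 CPM with decitabine. No libraries overlapped, and the log2 fold change was 4.34 (SE 0.62, adjusted p = 5.7e-05). Over the controls PDCD1LG2 had 8 counts in all, and the ratio of counts per scaled library was 21.1 with a 95% interval of 10.5 to 49.5, which covers counting error only. An antisense long non-coding RNA without a symbol overlaps both genes. It had 65 counts in control libraries, 117 after decitabine and 106 after the combination, and since the strand setting of the counting is not given in the sources used here, reads of the strands cannot be told apart. This RNA was itself tested and spans the gap between CD274 and PDCD1LG2, where no other tested gene lies.

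The other B7 members went in opposite directions. VTCN1 (ENSG00000134258, chromosome 1, 117143587 to 117210960, minus strand) had 0.198, 0.15 and 0.148 CPM in controls and 1.1, 2.53 and 2.33 CPM with decitabine. All treated libraries lay above all controls, with a log2 fold change of 3.54 (SE 0.47, adjusted p = 1e-05, edgeR's quasi-likelihood test). CD276 (ENSG00000103855, chromosome 15, 73683966 to 73714514, plus strand) had 49.7, 55.3 and 63.7 CPM in controls. With decitabine it had 39, 44.1 and 46.4 CPM, all under the lowest control. It fell by 0.38 on the log2 scale (SE 0.1, adjusted p = 0.0026), and with library size alone by 0.14 (adjusted p = 0.24), where the call was lost.

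IDO1 and LGALS9 had the largest changes of the 10 genes with decitabine. IDO1 (ENSG00000131203, chromosome 8, 39902275 to 39928790, plus strand) had 0.298, 0.3 and 0.0493 CPM in controls and 9.04, 7.37 and 12 CPM with decitabine. The groups were far apart, with a log2 fold change of 5.42 (SE 1.07, adjusted p = 0.0031). LGALS9 (ENSG00000168961, chromosome 17, 27629798 to 27649560, plus strand) had 0.0496, 0.15 and 0 CPM in controls, and 4.94, 5.06 and 8.54 CPM with decitabine. The controls held 4 counts in all, against 439 with decitabine. Its log2 fold change of 6.43 (SE 1.15, adjusted p = 0.0015) rests on these few counts, and the ratio of counts was 93.4 with a 95% interval of 36.2 to 344. Its near-identical copies LGALS9B and LGALS9C were at or near 0, and adding them to LGALS9 changed no call.

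**Figure D2:**
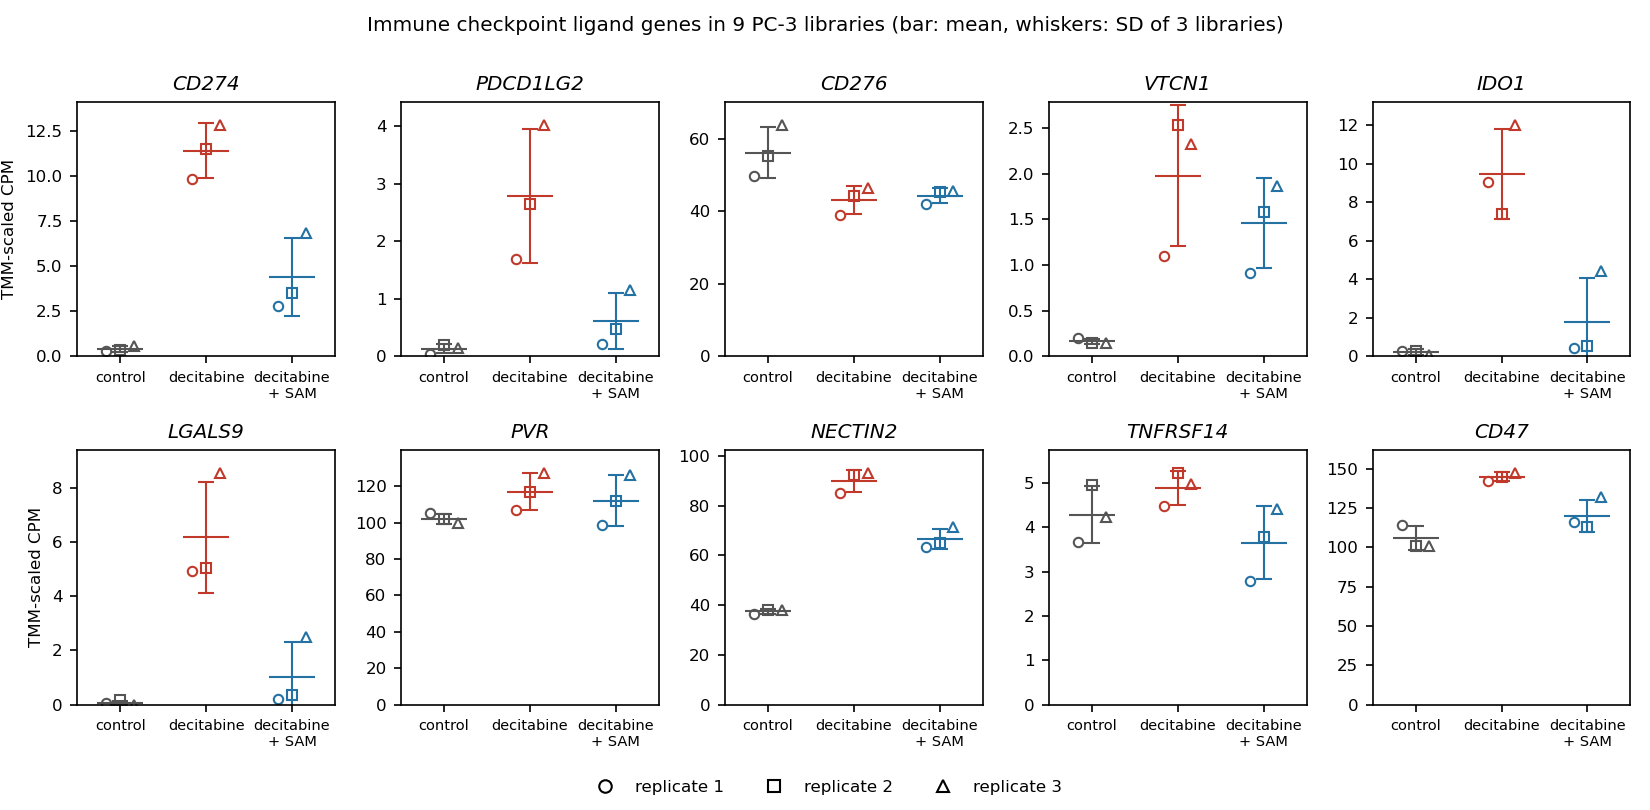
TMM-scaled CPM of each of the 10 genes in the 9 PC-3 libraries, each panel on its own linear axis from 0, with a bar for the mean and whiskers for the SD of 3 libraries. Replicate 3 of decitabine plus SAM (triangle) is the highest of its group in all 10 panels, and at 4.42 CPM for IDO1 and 2.51 CPM for LGALS9 it lies far above replicates 1 and 2.

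Of the ligands of lymphocyte receptors TIGIT and CD226, NECTIN2 rose and PVR was not called. NECTIN2 (ENSG00000130202, chromosome 19, 44846175 to 44889223, plus strand) had 36.4, 38 and 38.1 CPM in controls and 85, 92.2 and 92.9 CPM with decitabine. This 2.4-fold increase was large against the spread between libraries (log2 fold change 1.26, SE 0.07, adjusted p = 3.7e-09, edgeR's quasi-likelihood test). PVR (ENSG00000073008, chromosome 19, 44643798 to 44666162, plus strand) had 105, 102 and 99.7 CPM in controls and 107, 117 and 127 CPM with decitabine. The libraries did not overlap, but the log2 fold change of 0.19 (95% interval 0 to 0.39) missed the threshold (adjusted p = 0.068). Other settings called it in 5 of 8 fits, and leaving out 1 library did so in 3 of 9. CD47 (ENSG00000196776, chromosome 3, 108043091 to 108091862, minus strand) had 114, 101 and 101 CPM in controls and 142, 145 and 147 CPM with decitabine. It rose without overlap by 0.46 on the log2 scale (SE 0.08, adjusted p = 0.00011). TNFRSF14 (ENSG00000157873, chromosome 1, 2555639 to 2565382, plus strand) had 3.67, 4.95 and 4.24 CPM in controls and 4.48, 5.22 and 4.99 CPM with decitabine. These ranges overlapped, and the difference of 0.19 (95% interval -0.21 to 0.59) was not called (adjusted p = 0.37). Over the 10 genes, the groups did not overlap for 8 that were higher and 1 that was lower with decitabine. Of all genes tested, 38.1% were higher and 34.8% lower without overlap.

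**Figure D3:**
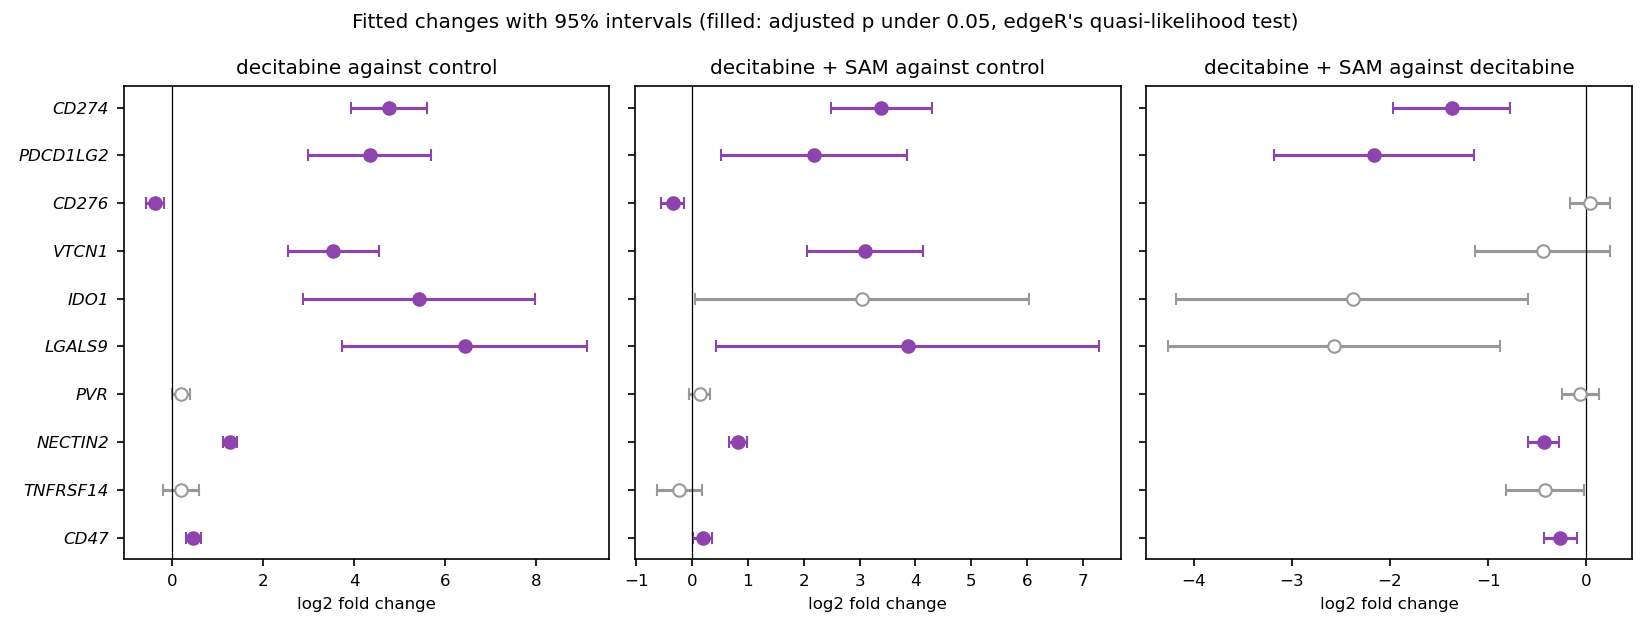
Log2 fold changes of the 10 genes with 95% intervals in the 3 comparisons, each on its own axis, filled where the adjusted p of edgeR's quasi-likelihood test was under 0.05. With decitabine 7 genes are filled above 0 and CD276 below it, and between the treatments 4 are filled, all below 0.

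With the combination of decitabine and SAM, 6 of the 10 genes were upregulated against control and 1 was downregulated, where 35.9% of all genes tested were upregulated and 31.3% downregulated. With library size alone these were 8685 and 3864 genes, in place of 6647 and 5799. The comparison shares its controls with that of decitabine. The members' median log2 fold change was 1.5, beside 0.048 over all genes, and 4 genes rose by more than 1, as did 21.4% of all genes. These 4 were again genes with few counts in the controls, which could hardly be called lower. CD274 had 2.78, 3.52 and 6.85 CPM with the combination, above all controls, with a log2 fold change of 3.39 (SE 0.41, adjusted p = 2e-05, edgeR's quasi-likelihood test). VTCN1 had 0.913, 1.58 and 1.87 CPM, also above all controls, with a log2 fold change of 3.1 (adjusted p = 5.5e-05). NECTIN2 had 63.5, 65 and 71.3 CPM and rose by 0.83 (adjusted p = 2.2e-07). These increases were called in all 8 other fits to the data and in all 9 that left out 1 library.

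The other 3 increases were less stable. PDCD1LG2 and LGALS9 had enough counts for testing only through the decitabine libraries, and a fit of control and combination libraries alone left them out. PDCD1LG2 had 0.217, 0.483 and 1.15 CPM, with a log2 fold change of 2.18 (SE 0.76, adjusted p = 0.023). LGALS9 had 0.217, 0.352 and 2.51 CPM, with a log2 fold change of 3.86 (SE 1.46, adjusted p = 0.048). CD47 had 116, 113 and 132 CPM, which overlapped the controls, with a log2 fold change of 0.19 (adjusted p = 0.041). In all 3 combination replicate 3 was the highest, and without it none was called, with log2 fold changes of 1.36, 2.01 and 0.11 and adjusted p-values of 0.12, 0.0545 and 0.19. IDO1 had 0.435, 0.527 and 4.42 CPM, above all controls, but its log2 fold change of 3.04 (SE 1.26) was not called (adjusted p = 0.068). CD276 had 42.1, 45.4 and 45.5 CPM and fell by 0.34 (adjusted p = 0.0055), again without the call under library size alone (a fall by 0.12, adjusted p = 0.29). PVR had 98.5, 112 and 126 CPM and TNFRSF14 2.78, 3.78 and 4.42 CPM. Their changes of 0.14 (adjusted p = 0.19) and -0.23 (adjusted p = 0.31) were not called. Without combination replicate 3, 3 genes were upregulated, CD274, VTCN1 and NECTIN2, where 34.0% of all genes tested were upregulated. Without control replicate 3 the number was also 3, where 6385 of 19064 genes tested were upregulated. In these fits the members were thus near the share over all genes. Over the 10 genes, 6 were higher and 1 lower than the controls without overlap, as were 38.0% and 33.6% of all genes.

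Between the treatments, 4 of the 10 genes were lower with the combination than with decitabine and 0 were higher, in edgeR's quasi-likelihood test across all 18532 genes. Of all genes, 8.02% were lower and 7.67% higher. No member was higher at an unadjusted p under 0.05, nor with DESeq2 or with voom and limma. CD274 was lower by a log2 fold change of -1.37 (95% interval -1.97 to -0.78, adjusted p = 0.0081), so that the fitted level with the combination was 38.6% of that with decitabine. PDCD1LG2 was lower by -2.16 (95% interval -3.18 to -1.14, adjusted p = 0.011). NECTIN2 was lower by -0.43 (SE 0.07, adjusted p = 0.0021) and CD47 by -0.27 (SE 0.08, adjusted p = 0.031). For all 4 genes, every combination library lay below every decitabine library. More than 1 on the log2 scale separated the treatments for CD274 and PDCD1LG2, 2 of 10 genes, as for 1.74% of all genes. PDCD1LG2 had enough counts for testing only through the decitabine libraries.

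IDO1 and LGALS9 had the lowest fitted values of the 10 genes in this comparison and were not called. The log2 fold change was -2.38 for IDO1 (95% interval -4.18 to -0.59, adjusted p = 0.08) and -2.57 for LGALS9 (95% interval -4.26 to -0.88, adjusted p = 0.0524). Here too no libraries of the treatments overlapped. TNFRSF14 differed by -0.42 (95% interval -0.82 to -0.02, adjusted p = 0.14), also without overlap. VTCN1 differed by -0.44 (95% interval -1.13 to 0.24), PVR by -0.06 (95% interval -0.25 to 0.13) and CD276 by 0.04 (95% interval -0.17 to 0.24), and the libraries of these 3 genes overlapped. In all, 7 of 10 genes were lower without overlap, against 16.8% of all genes tested. Among them LGALS9, like PDCD1LG2, had enough counts for testing only through the decitabine libraries. The median difference was -0.44, beside 0.002 over all genes.

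Combination replicate 3 stood apart in several of these genes, and it also differed from replicates 1 and 2 over genes in general. The chi-square per degree of freedom of their counts was 23.5 and 15.1 against replicates 1 and 2, and 5.86 between those. How often combination replicate 3 was the highest library over all genes was not counted. It was the highest of the 3 combination libraries for 10 of 10 members and for 12 of 12 interferon-induced genes listed (ISG15, MX1, IFI44L, OAS1, IFIT1, IFIT3, GBP1, GBP4, CXCL10, CXCL11, PSMB9 and TAP1). In the decitabine group, replicate 3 was the highest library for 8 of 10 members and for 7 of 12 of these genes. IDO1 was 9.2 times and LGALS9 8.82 times as high in combination replicate 3 as the mean of combination replicates 1 and 2. For PDCD1LG2 this ratio was 3.28, for CD274 2.17 and for CD276 1.04. Relative to the decitabine mean, IDO1 was at 4.6%, 5.57% and 46.8% in combination replicates 1, 2 and 3, and LGALS9 at 3.52%, 5.69% and 40.6%. CD274 was at 24.4%, 30.9% and 60.2%. The summed level of the 12 interferon-induced genes was 667, 735 and 1720 CPM in the same libraries, against 198 to 269 CPM in controls and 3690 to 4090 CPM with decitabine. Whether this gene group has a part in the members' values was not tested.

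Combination replicate 3 was the highest of its group for 10 of 10 members, so leaving it out was bound to lower their combination means. Larger falls in that fit are therefore no separate support. Without this library, 6 of the 10 genes were lower with the combination than with decitabine, where 10.5% of all genes tested were lower. They were IDO1 with a log2 fold change of -4.28 (adjusted p = 1.1e-06, edgeR's quasi-likelihood test), LGALS9 with -4.41 (adjusted p = 1e-05), PDCD1LG2 with -2.97, CD274 with -1.85, NECTIN2 with -0.48 and CD47 with -0.34. Without combination replicate 2, 2 genes remained called, NECTIN2 and, at an adjusted p of 0.049998, CD274, and PDCD1LG2 had -2.01 (adjusted p = 0.065). The difference in CD47 lost its call in 6 of the 9 fits that left out 1 library, where it lay between -0.34 and -0.22. NECTIN2 and CD274 were called in all 9, at -0.48 to -0.4 and at -1.85 to -1.13.

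**Figure D4:**
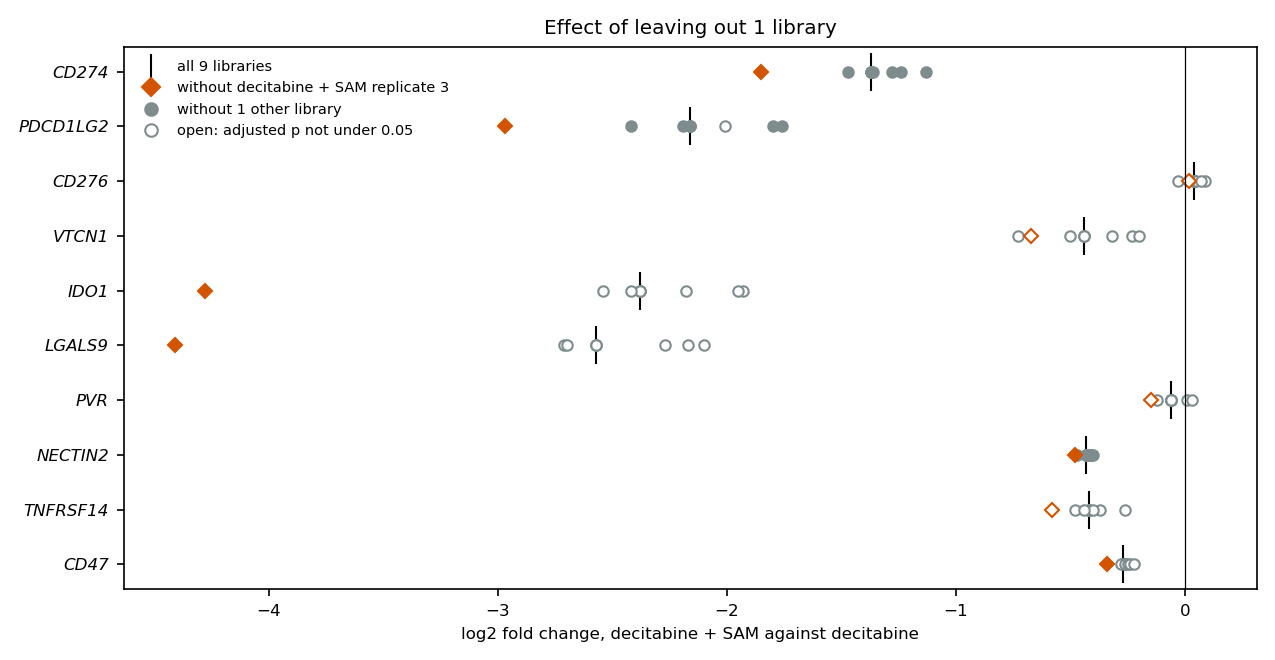
Log2 fold change between decitabine plus SAM and decitabine for each of the 10 genes with all 9 libraries (vertical mark), without combination replicate 3 (diamond) and without each other library (circles), open where the adjusted p was not under 0.05. IDO1 and LGALS9 lie at -4.28 and -4.41 without combination replicate 3 and at -2.38 and -2.57 with all libraries.

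Regulators of CD274 transcription were read as a list of 12 genes, of which 11 were tested. With decitabine 4 were upregulated and 2 downregulated, beside 36.3% and 32.5% of all genes tested. These shares are to be read beside each list below, where genes near 0 in the controls could hardly be called lower. IRF1, a transcription factor of the interferon response, rose from 16.5 ± 1.53 to 36.8 ± 3.64 CPM and was at 19.6 ± 4.46 CPM with the combination, a difference of -0.91 (adjusted p = 0.0018, edgeR's quasi-likelihood test). In contrast, IFNGR1, a chain of the interferon gamma receptor, rose to 46.2 ± 7.07 CPM with decitabine and was at 47.7 ± 7.45 CPM with the combination, a difference of 0.05 (adjusted p = 0.83). STAT3 was listed at 0 counts in all 9 libraries. Between the treatments 1 gene of this list was higher and 3 were lower. All 12 interferon-induced genes were upregulated with decitabine (median log2 fold change 4.8), and 9 of 12 were lower with the combination than with decitabine (median -2.03). Of these 12, GBP4, CXCL10 and CXCL11 had 0 to 3 counts in a control library, so they could hardly be called lower with decitabine. MX1 differed by -2.28 (adjusted p = 0.034) and IFIT3 by -2.23 (adjusted p = 0.031). Without combination replicate 3 all 12 were lower, with a median of -2.95, but this library was their highest, so their combination means were bound to fall.

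The next list held genes that modify, stabilise or degrade the PD-L1 protein. Of 10 tested, 4 were upregulated and 5 downregulated with decitabine, with a median of -0.17. B3GNT3, a glycosyltransferase of PD-L1, rose from 17.0 ± 1.46 to 60.6 ± 2.95 CPM, a log2 fold change of 1.83 (adjusted p = 9.9e-10). COPS5, a deubiquitinase that stabilises PD-L1, fell by 0.58 on the log2 scale (adjusted p = 2.4e-05). CMTM4, which protects PD-L1 from degradation, and ZDHHC3, a palmitoyltransferase, were the 2 genes higher with the combination than with decitabine, by 0.49 (adjusted p = 0.0037) and 0.26 (adjusted p = 0.021).

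Relatives of the members moved in both directions. Of 15 other B7 and butyrophilin genes, 11 were tested, and 5 were upregulated and 1 downregulated with decitabine. VSIR, which encodes the checkpoint protein VISTA, rose from 8.78 ± 0.574 to 53.9 ± 3.13 CPM (log2 fold change 2.62, adjusted p = 2.8e-11) and was at 57.5 ± 3.74 CPM with the combination, a difference of 0.09 (adjusted p = 0.45). ICOSLG, the ligand of the co-stimulator ICOS, was downregulated by -0.95 (adjusted p = 8e-06). BTN3A2 and BTN3A3, butyrophilins that take part in the recognition of phosphoantigens by gamma delta T cells, were lower with the combination than with decitabine, by -1.45 (adjusted p = 0.0016) and -1.33 (adjusted p = 0.00096), and they lay below the controls as well (-1.27 and -0.7, both called). Of 5 other nectins and nectin-like genes tested, 2 were upregulated and 3 downregulated with decitabine, among them the adhesion genes CADM2 (-1.18) and CADM4 (-0.59). Between the treatments 0 of these 5 were called by edgeR, DESeq2 or voom and limma, and 0 had an unadjusted p under 0.05. Of 4 other galectins tested, LGALS4 rose from 0.133 ± 0.0583 to 2.59 ± 0.401 CPM, whereas LGALS1, a galectin at 451 ± 22.9 CPM in controls, fell by 0.57 on the log2 scale (adjusted p = 1.8e-05). LGALS8 was the 1 galectin of that list called between the treatments (-0.4, adjusted p = 0.015).

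Enzymes and carriers around IDO1 were mixed. Of 13 tested genes of the kynurenine pathway, 6 were upregulated and 2 downregulated with decitabine, with a median of -0.07. IL4I1, an oxidase of aromatic amino acids, rose from 0.52 ± 0.196 to 18.4 ± 6.71 CPM, a log2 fold change of 5.15 (adjusted p = 0.00014), and was at 9.25 ± 4.76 CPM with the combination, where the difference from decitabine was not called (-0.99, adjusted p = 0.14). KMO, which hydroxylates kynurenine, rose by 2.3 (adjusted p = 1.1e-05) and was lower with the combination by -1.28 (adjusted p = 0.0076). KYAT3, an aminotransferase that forms kynurenic acid, was lower with the combination than with decitabine by -0.51 (adjusted p = 0.011). In all, 3 genes of this list were lower and 0 higher between the treatments in edgeR, 1 was higher at an unadjusted p under 0.05, and DESeq2 and voom with limma also called 0 higher.

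Around CD47, 4 of 8 tested genes were upregulated and 2 downregulated with decitabine. THBS1, the secreted protein thrombospondin 1 that binds CD47, rose from 42.8 ± 9.67 to 573 ± 159 CPM (log2 fold change 3.74, adjusted p = 4.7e-05) and was at 586 ± 170 CPM with the combination. B2M, the light chain of class I molecules, which also signals to macrophages, rose by 1.27 (adjusted p = 1.9e-08) and was lower with the combination by -0.66 (adjusted p = 0.00059). It was the 1 gene of the list that edgeR called between the treatments, while DESeq2 called 3 lower, and edgeR called 4 lower without combination replicate 3.

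Among 8 tested TNF superfamily co-stimulators, 6 were upregulated and 1 downregulated with decitabine, beside 36.3% and 32.5% of all genes tested. CD40 and LTB had 0 counts in every control library, TNFSF15 had 0 to 3 and TNFSF18 0 to 2. These genes could hardly be called lower. TNFSF18, the ligand of GITR, had 3 counts over the controls and 461 with decitabine, a ratio of 131 with a 95% counting interval of 44.5 to 636. It was the 1 gene of the list that edgeR called lower with the combination (2.5 ± 1.14 CPM, difference -1.37, adjusted p = 0.0053). TNFSF4, the ligand of OX40, rose from 2.25 ± 0.688 to 7.35 ± 1.18 CPM. Of 6 other inhibitory ligands and enzymes tested, 4 were upregulated and 1 downregulated. CEACAM1, a ligand of TIM-3, rose by 3.5 (adjusted p = 0.00032). HLA-E, the ligand of the inhibitory receptor NKG2A, rose from 96.2 ± 5.5 to 323 ± 18.5 CPM and was at 165 ± 44.2 CPM with the combination (difference -0.97, adjusted p = 0.0039). ARG2, an arginase, went the other way, from 5.0 ± 0.848 CPM with decitabine to 7.61 ± 0.184 CPM with the combination (difference 0.61, adjusted p = 0.025).

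The receptors that lymphocytes carry for these ligands were read too, as a check on other cells. Of 15 listed, 7 were tested, and all 7 were upregulated with decitabine. These 7 had 0 (CTLA4) to 11 (TNFRSF9) counts in a control library. They had enough counts for testing only through the treated libraries, so they could hardly be called lower. The summed level of the 15 stayed low, at 1.29 to 1.6 CPM in controls, 10.3 to 11.4 CPM with decitabine and 10.8 to 11.8 CPM with the combination. CTLA4 had 0 counts in the 3 controls and 2.53 ± 0.111 CPM with decitabine, at least 51.1-fold higher when the controls together are set to 3 counts, and 2.96 ± 0.359 CPM with the combination. Of the 9 leukocyte markers 2 were tested, PTPRC and CD14, and both were upregulated with decitabine. They too were tested only through the treated libraries, with 1 to 2 (PTPRC) and 3 to 4 (CD14) counts in a control library. Over 4 fibroblast markers the sum was 1.82 to 2.7 CPM in controls, 50 to 67.9 CPM with decitabine and 44.1 to 54.7 CPM with the combination, and over 4 endothelial markers 25.8 to 28, 41.5 to 60.9 and 50.9 to 59.3 CPM. The endothelial markers were not alike. With decitabine PECAM1 rose from 10.1 ± 0.277 to 35.1 ± 5.64 CPM, but KDR was not called (-0.13, adjusted p = 0.5, edgeR's quasi-likelihood test). VWF rose from 0 to 1 counts in a control library, and CDH5 was not tested. The part of these markers in the members' values was not tested.

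**Figure D5:**
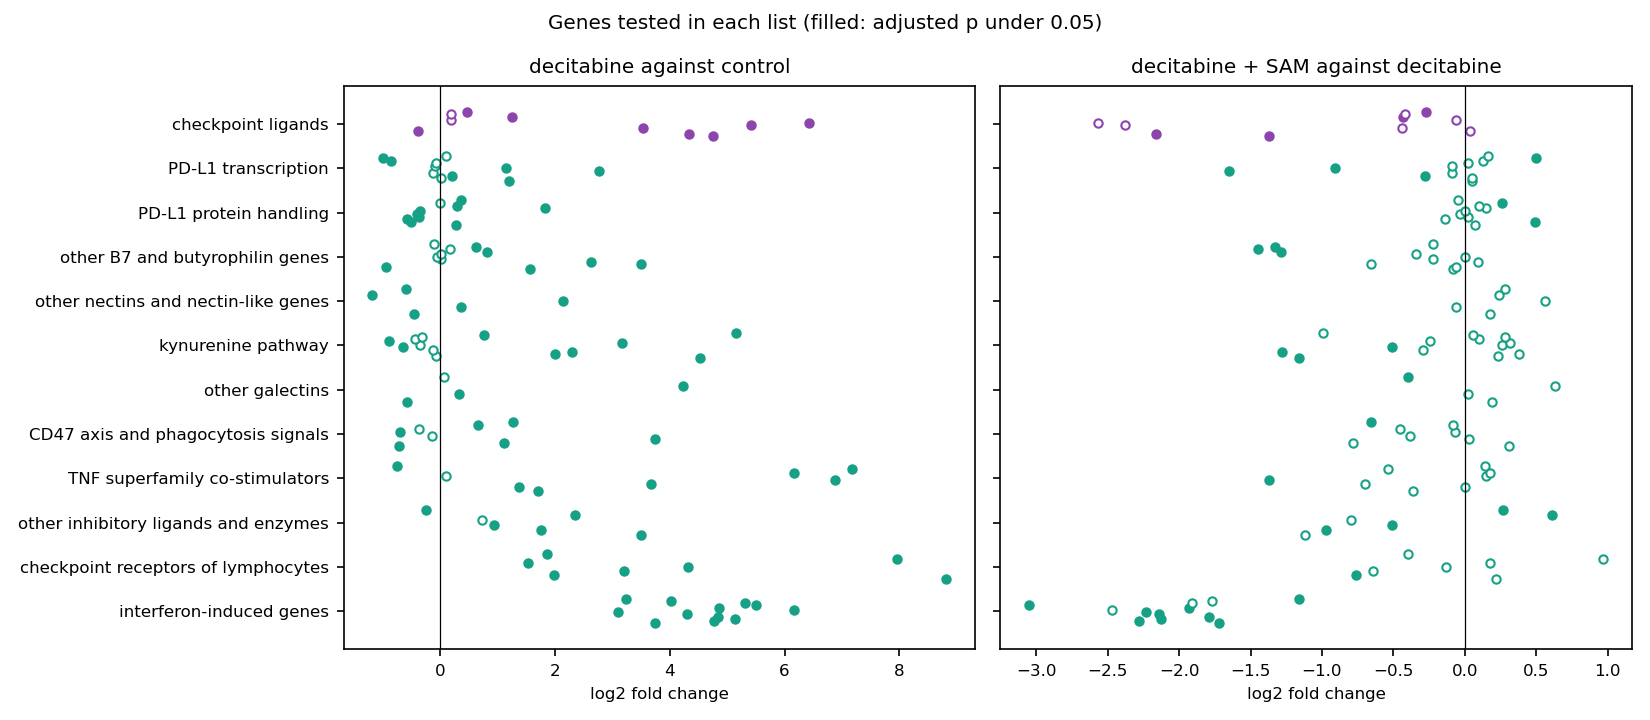
Log2 fold changes of the tested genes of the checkpoint ligands and of 11 lists, with decitabine against control (left) and with decitabine plus SAM against decitabine (right), each point a gene, filled where the adjusted p was under 0.05; the axes differ. All 12 interferon-induced genes lie above 0 on the left and below 0 on the right, and the other lists lie on both sides of 0 in at least 1 comparison.

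Genes next to the members on the chromosome were compared after the members' values had been seen. On either side, the nearest tested protein-coding gene that does not overlap the member was taken. Tested genes that overlap a member were left out, namely the antisense RNA at CD274 and PDCD1LG2, and CEACAM19 and CEACAM16-AS1 at PVR. Of these 18 neighbours that are not members, 5 were upregulated and 6 downregulated with decitabine, and 2 rose by more than 1, IDO2 and HES5. IDO2, a relative of IDO1 that lies 5823 bases beyond it, had 3 counts over the controls and 90 with decitabine, a ratio of 25.5 with a 95% counting interval of 8.46 to 126 (adjusted p = 1.1e-05, edgeR's quasi-likelihood test). The combination was lower than decitabine by -1.16 (adjusted p = 0.0485). HES5, a transcription factor of the Notch pathway beside TNFRSF14, had 1 count over the controls and 33 with decitabine. PLGRKT, 12577 bases before CD274, was downregulated (-0.68, adjusted p = 0.00056), and RIC1, 57742 bases after PDCD1LG2, rose by 0.45 (adjusted p = 0.00064). PVR and NECTIN2 lie 180012 bases apart on chromosome 19, with 2 tested genes wholly between them.

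The patterns most like that of CD274 over the 9 libraries, among 13631 genes that averaged at least 50 counts, were those of ANKRD33B (Pearson's r of log2 CPM 0.997), TENT5A (0.997) and the histone gene H2AC6 (0.997). For LGALS9 they were APOL3 (0.997), the immunoproteasome subunit PSMB9 (0.997) and IDO1 (0.993). The points are 9 libraries in 3 groups, so these values describe mostly the differences between groups.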

How the data were processed

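RNA-seq libraries of PC-3 cells were grouped by the condition in their labels, with 3 libraries per group. According to the study's methods and the submitters' processing notes, reads were trimmed with Trim Galore 0.6.4 and counted with kallisto against GRCh38.p13, and what the authors deposited are estimated counts for each Ensembl gene, not normalized. The deposited CPM values, made with library size alone, were not used. Version 0.4.6 of kallisto is that of the notes, and the annotation release and the strand setting are not given in the sources used here.

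Estimated counts were rounded. Of 60617 identifiers, 60357 matched GENCODE release 44. The filter filterByExpr keeps genes with enough counts in 3 libraries, of any group. Genes near 0 in the controls could therefore hardly be called lower with a treatment. The 18532 genes that passed filterByExpr were fitted with edgeR 4.0.16 in R 4.3.3 (TMM, robust quasi-likelihood test, all 9 libraries, no term for the replicate), and p-values were adjusted over all of them by the Benjamini-Hochberg method with a threshold of 0.05. An exact permutation test of 3 against 3 libraries cannot go below p = 0.1 (two-sided), and none was used. Alternatives were library size alone or size factors of DESeq2 as scaling, DESeq2 1.42.0 or voom with limma 3.58.1 as test, a minimum mean of 10 counts or no filter, a fit of only those 6 libraries a comparison is about, a block for the replicate number, a log2 fold change over 1, LGALS9 summed with LGALS9B and LGALS9C, and leaving out each library. Counts of list genes without combination replicate 3 were added after seeing the data.

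The 10 members and all lists were chosen with earlier results of these data known. From each list, called genes that averaged at least 50 counts in a group were named, up to 2 with the largest change with decitabine and up to 2 between the treatments. The values of 1 further listed gene are not reported here. The most alike genes were the 3 with the highest correlation for CD274 and for LGALS9. Levels between genes were divided by the length of the Ensembl canonical transcript. Pairs of libraries in a group differed by a chi-square per degree of freedom of 5.86 to 23.5, so none was a copy. The scripts were tested on simulated data. Figures were drawn with matplotlib 3.10.9.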

Additional observations from a re-analysis of the deposited data

Results flagged for a closer look

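4 of the 10 genes differed between the treatments in the direct test of the combination against decitabine, which drew attention to them. The log2 fold change was -1.37 for CD274, -2.16 for PDCD1LG2, -0.43 for NECTIN2 and -0.27 for CD47. In each of the 4, all 3 combination libraries were below all 3 decitabine libraries.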

How the results depend on the processing

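For decitabine against control, the upregulated members numbered 6 to 8 over all alternatives. The downregulated member, CD276, was not called with library size alone or with a log2 fold change over 1 required (0 members in each case). For the combination against control, 3 to 8 members were upregulated when 1 library was left out. The number was 3 without control replicate 3, 3 without combination replicate 3 and 8 without combination replicate 1. Of all genes tested, 6385 of 19064, 6441 of 18939 and 6567 of 19009 were upregulated in these fits, in the same order. With library size alone and with the fold change threshold, 0 members were downregulated. For the combination against decitabine, 2 to 6 members were lower when 1 library was left out, and 2 were lower with the fold change threshold. The fewest were without combination replicate 2, where 480 of 19001 genes tested were lower. The most were without combination replicate 3, where 1998 of 18939 were lower.

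Of the members' single log2 fold changes, 237 kept their direction and side of the threshold when 1 library was left out, 22 lost the call, 8 gained it and 3 changed sign. Under the other alternatives the numbers were 225, 5, 11 and 0. The changes of sign were between the treatments, in CD276 without decitabine replicate 1 (-0.03, over a range of -0.03 to 0.09 without 1 library), and in PVR without decitabine replicate 3 (0.01) and without combination replicate 1 (0.03, over a range of -0.15 to 0.03). With voom and limma, IDO1 and LGALS9 were called between the treatments (-3.15, adjusted p = 0.0046, and -3.29, adjusted p = 0.005). LGALS9 against control with the combination lost its call in 7 of 9 fits without 1 library and without a filter on low counts. DESeq2 called IDO1 with the combination against control (3.07, adjusted p = 0.0063).

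The replicate numbers were not used as pairs in the main fit. Libraries with the same number deviated together with correlations of -0.0165 to 0.0182 (decitabine and control), -0.0039 to 0.0694 (combination and control) and 0.0359 to 0.233 (combination and decitabine). For libraries with different numbers the correlations were -0.043 to 0.0579, -0.0789 to 0.0168 and -0.22 to 0.0141, in the same order. These values do not settle whether the numbers mark pairs. With the number as a block, LGALS9 was called between the treatments (-2.8, adjusted p = 0.012) and PVR with decitabine (0.19). The SE of CD274 between the treatments was 0.17 with this block and 0.27 without it. Other lengths or library size alone as the scale moved 17 and 5 of 30 levels per length. In the controls, 5 members had 25 counts or fewer in all, which limits the precision of their increases.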
